A study of Homo sapiens with 42 samples.

Results

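The 2 cell lines compared here carry versions of HIF-1α that are broken at different steps. HIF-1α is the inducible subunit of hypoxia-inducible factor 1: it pairs through its PAS domains with HIF-1β, the product of ARNT, and the pair then binds the core motif ACGTG or GCGTG of hypoxia response elements through the basic regions of both subunits. In HIF-1α R30E a residue of the DNA-binding domain is replaced, a change described as impairing DNA binding, while the dimerization surface is left as it is. In HIF-1αDM the substitutions R170A and V191D lie in the dimerization domain. The comparison therefore sets a HIF-1α expected to pair with HIF-1β but not to hold DNA against one expected not to pair, and asks which transcripts differ between them.

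Of the 42 polyA RNA-seq libraries of the series, 6 make up the comparison: 3 of the HIF-1α R30E line and 3 of the HIF-1αDM line, all from the first of 2 batches. Both lines were made from 786-O cells, a human clear cell renal cell carcinoma line that lacks VHL, keeps HIF-2α stable in normal oxygen and has no functional HIF-1α of its own. The mutants were fused to V5 and HaloTag and driven weakly by the L30 promoter after random genomic integration, and each line is a puromycin-selected pool of stable cells. With 1 pool per mutant, a difference between the mutants cannot be told apart from a difference between the pools. Unedited WT cells (WT, 3 libraries) served as reference for levels, and the other groups of the first batch (HIF-1β KIN and HIF-2α KIN, which are clones with a tagged endogenous subunit; HIF-1α, HIF-2α, HIF-2α R27E and HIF-2αDM, which carry transgenes of the same design) share the fit. HIF-2α R27E and HIF-2αDM (R171A and V192D) are the matching pair of HIF-2α mutants. The genotype label of the HIF-2αDM libraries names HIF-1α, whereas their titles and descriptions name HIF-2α, and they were taken as HIF-2αDM.

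The 6 libraries held 49650532 to 81013481 gene counts each, and 3 counts, taken as the detection floor, stood for 0.037 to 0.0604 CPM (counts scaled to library size). Levels below are normalized counts, that is, counts scaled to a common effective library size, and are not corrected for gene length. The first principal component of the 6 libraries (47.1% of the variance) separated both libraries numbered 3 from the other 4, and the second (25%) separated the lines. The Euclidean distance between an R30E and a DM library (log2 CPM, all genes tested) was 124 ± 11 (SD, 9 pairs), and 112 ± 7.81 over the 3 pairs of the same number. It was 127 ± 4.09 between R30E libraries and 116 ± 6.52 between DM libraries (3 pairs each). All 14 markers of clear cell renal carcinoma had over 3 counts in at least 1 of the 6 libraries, CA9 in DM cells alone, with at most 5. Of 11 fibroblast markers 7 did, with PDGFRA, DCN, COL1A2 and TCF21 not among them. So did 5 of 9 endothelial, 3 of 11 blood and immune and 10 of 19 neuronal and neuroendocrine markers. None of the markers outside the renal carcinoma list was called between the lines.

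HIF1A, to which transgene and endogenous reads both map, was measured at 2366, 2803 and 2367 normalized counts in the 3 R30E libraries and at 2583, 2148 and 2017 in the DM libraries. The lines overlapped, and the log2 difference of 0.16 ± 0.23 (SE) did not pass the test (edgeR's quasi-likelihood test, Benjamini-Hochberg adjusted p = 1). WT cells had 242 ± 13.5 (SD, n = 3) and the line with intact HIF-1α 3038 ± 233. The counts cannot show which mutation a library carries, and protein was not measured in these files. EPAS1, which encodes HIF-2α, stood at 8033, 10400 and 12530 in R30E and at 10160, 12860 and 11370 in DM cells (log2 difference -0.15, adjusted p = 0.993). ARNT stood at 827, 1471 and 1054 against 1528, 1368 and 1079 (log2 difference -0.24, adjusted p = 0.954). The transcripts of the 3 HIF subunits were thus within the spread of the replicates in both lines.

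At an adjusted p of at most 0.01 and at least a 2-fold change, 75 of 23410 genes tested (0.32%) were higher in R30E than in DM cells and 42 (0.179%) were lower, while the median log2 difference over all genes was -0.019. These 2 shares are the reference for each count of called list members below. Of the 117 called genes, 113 code for proteins, and in every one the 3 R30E libraries lay wholly above or below the 3 DM libraries. The p-values rest on the spread between replicate libraries over all 9 groups of the first batch, and do not measure a spread between independent pools. In bulk RNA fewer cells expressing a gene cannot be told apart from less RNA per cell. Same-numbered libraries of the 2 lines deviated together, and in a fit blocked on the replicate number 143 genes were higher and 84 lower, among them all 75 and all 42. The count of higher genes rested in part on single libraries: it was 29 without DM replicate 1, 38 without DM replicate 2, 48 without DM replicate 3 and 34 without R30E replicate 3. Without any 1 library 29 to 33 genes were lower.

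**Figure D1:**
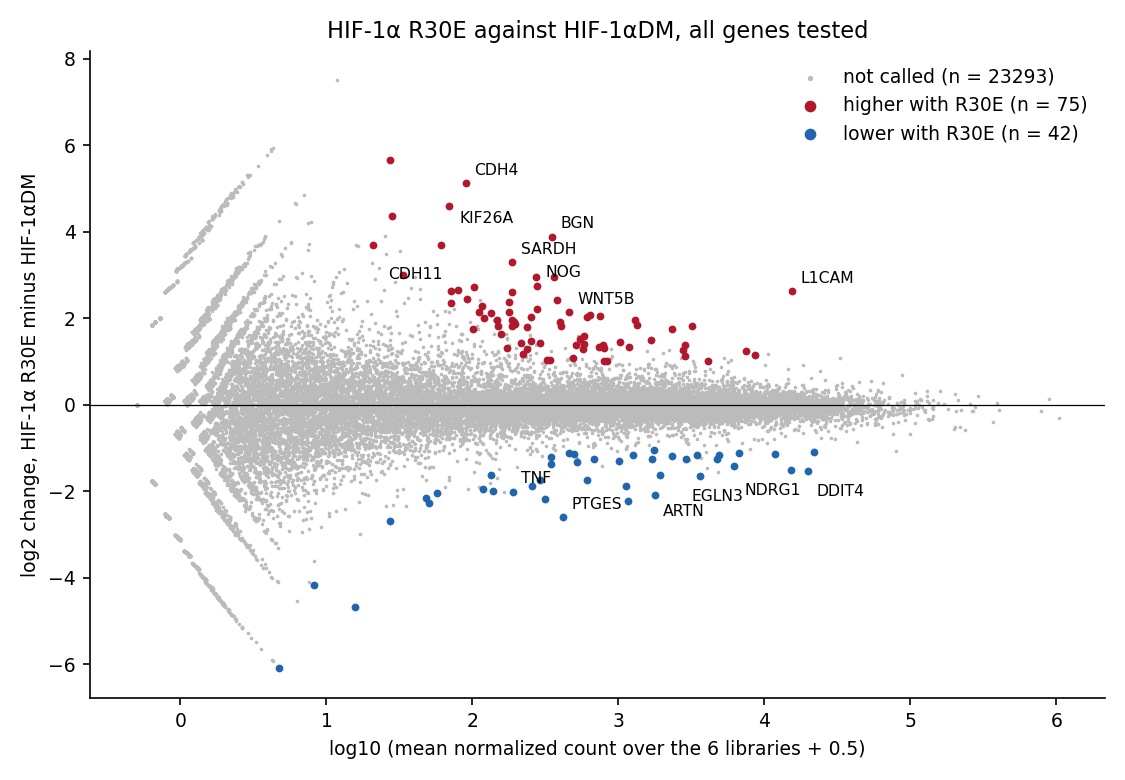
Each point is 1 of 23410 genes, with the log10 of the mean normalized count over the 6 libraries on the x axis and the log2 change between HIF-1α R30E and HIF-1αDM on the y axis. The 75 red genes were called higher and the 42 blue genes lower with R30E, and L1CAM is a called gene of high level, with a mean of 26670 in R30E and 4333 in DM cells.

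Among the genes higher with R30E, L1CAM encodes a neural cell adhesion molecule of the immunoglobulin superfamily (ENSG00000198910.14, hg38 chrX:153861514-153886173, minus strand). Its normalized count was 22340, 22340 and 35310 in the R30E libraries and 4095, 3838 and 5067 in the DM libraries. The lowest R30E library lay far above the highest DM library (log2 change 2.62 ± 0.24, adjusted p = 5.22e-07), whereas WT cells, at 3639 ± 794, had a level like that of DM cells. BGN, which encodes the small leucine-rich proteoglycan biglycan (ENSG00000182492.16, chrX:153494980-153509546, plus strand), stood at 552, 506 and 922 in R30E and at 22.9, 51.7 and 58.6 in DM cells (log2 change 3.89 ± 0.45, adjusted p = 9.57e-06). It was barely detected in WT cells, at 6.43 ± 1.4, and the line with intact HIF-1α reached 80 ± 15.8. BGN was the only 1 of 22 proteoglycan genes tested that was called.

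L1CAM and BGN lie on the same arm of the X chromosome, 352 kb apart. Of the 16 other tested genes between them none was called, and the 10 with at least 50 normalized counts on average had log2 changes from -0.35 to 0.19. Intact HIF-1α, paired with HIF-1β, recognises ACGTG and GCGTG, whereas neither mutant is expected to bind them. The 300 bases around 1 RefSeq start site of L1CAM and of BGN are shown with these motifs marked. Those of DDIT4 and EGLN3, HIF target genes described further on, are shown too. The windows run from 250 bases before to 50 bases after the start site (RefSeq, GRCh38.p14), read 5′ to 3′ on the strand of the gene, with a match to either motif on either strand in capitals.
L1CAM (chrX:153875895-153876194, minus strand): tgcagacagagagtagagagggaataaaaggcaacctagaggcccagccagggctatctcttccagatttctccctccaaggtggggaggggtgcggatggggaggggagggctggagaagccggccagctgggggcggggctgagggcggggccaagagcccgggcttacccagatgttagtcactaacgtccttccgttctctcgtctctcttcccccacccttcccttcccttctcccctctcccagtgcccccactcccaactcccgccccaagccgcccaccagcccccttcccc
BGN (chrX:153494730-153495029, plus strand): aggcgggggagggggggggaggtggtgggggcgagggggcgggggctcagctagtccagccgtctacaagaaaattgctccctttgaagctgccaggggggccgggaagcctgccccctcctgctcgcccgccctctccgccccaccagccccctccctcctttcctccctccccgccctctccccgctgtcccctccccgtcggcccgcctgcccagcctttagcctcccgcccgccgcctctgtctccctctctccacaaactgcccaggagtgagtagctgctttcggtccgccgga
DDIT4 (chr10:72273674-72273973, plus strand): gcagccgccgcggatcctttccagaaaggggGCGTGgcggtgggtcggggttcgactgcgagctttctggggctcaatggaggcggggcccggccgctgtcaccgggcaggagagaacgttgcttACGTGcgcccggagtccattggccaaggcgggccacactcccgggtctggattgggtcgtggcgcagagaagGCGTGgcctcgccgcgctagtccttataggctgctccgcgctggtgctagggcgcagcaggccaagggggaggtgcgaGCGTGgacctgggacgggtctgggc
EGLN3 (chr14:33951025-33951324, minus strand): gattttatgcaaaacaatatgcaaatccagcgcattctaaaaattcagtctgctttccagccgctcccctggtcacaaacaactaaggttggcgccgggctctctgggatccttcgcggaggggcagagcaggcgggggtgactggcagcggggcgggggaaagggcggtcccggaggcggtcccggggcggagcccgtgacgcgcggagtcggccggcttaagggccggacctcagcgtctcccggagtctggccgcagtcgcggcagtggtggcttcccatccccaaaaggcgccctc
DDIT4 held 1 match to ACGTG and 3 to GCGTG, and the other 3 windows held none. Only 1 window was used per gene symbol. Those of L1CAM and EGLN3 lie inside the GENCODE gene, away from its annotated 5′ end, and other start sites were not searched. RefSeq windows were matched by symbol for 54 of the 75 higher genes and 26 of the 42 lower genes. Of these, 25 (46.3%) and 10 (38.5%) held at least 1 match to either motif, against 7663 of 12661 windows (60.5%) of all genes tested and 27 of 34 (79.4%) of the classic HIF target genes. Where the motifs overlap, as in CACGTG on both strands, each match was counted. A match in such a window is a run of letters and no measured binding site.

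Cadherins, the calcium-dependent adhesion receptors, were represented by CDH4 and CDH11, the only 2 called of 16 tested, where 0.32% of all genes were called higher. CDH4 (R-cadherin) was close to absent in DM cells, at 0, 6.83 and 7.54, and reached 202.5, 140.6 and 180.1 in R30E cells (log2 change 5.13 ± 0.68, adjusted p = 6.93e-05). CDH11 (OB-cadherin) stood at 120, 131 and 115 in R30E and at 15.9, 27.3 and 15.9 in DM cells (log2 change 2.63 ± 0.36, adjusted p = 0.000124). WT means lay within both DM ranges, at 2.17 ± 0.277 (SD, n = 3) for CDH4 and 24.4 ± 4.79 for CDH11. CDH2 and CDH6, with means of 9566 and 7203, were not called (log2 differences 0.19 and 0.59). None of 45 protocadherins and none of 26 integrins was called in either direction. Outside the lists, and picked after their values were seen, the adhesion genes ESAM (log2 change 1.79, adjusted p = 0.000282), AJAP1 (2.15, 0.0029) and BCAM (2.08, 0.00334) were also higher. Without 1 library ESAM kept its call in all 6 fits, AJAP1 lost it in 4 (adjusted p up to 0.0363, without R30E replicates 1 or 3 or DM replicates 1 or 2) and BCAM in 5 (up to 0.0457, all but R30E replicate 1).

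Of 31 Wnt pathway genes, 2 were called higher and 1 lower, where 0.32% and 0.179% of all genes were, and 2 of these 3 calls were lost without single libraries. WNT5B, a ligand of mainly non-canonical Wnt signalling, rose from 142, 182 and 184 in DM cells to 779, 596 and 884 in R30E cells (log2 change 2.15 ± 0.24, adjusted p = 7.66e-06). The groups were well apart, and WT cells (108 ± 12.3) lay below both. WNT2B was higher by 2.12 on the log2 scale (adjusted p = 0.00579), a call lost when any 1 of the 6 libraries was left out (adjusted p between 0.0145 and 0.0554). FZD8, a Frizzled receptor, fell by 1.26 (adjusted p = 0.00292), and it lost its call without R30E replicates 1 or 2 or DM replicates 2 or 3 (adjusted p up to 0.0286). WLS, the carrier that takes Wnt proteins to the cell surface, and DAAM2, a formin of the Wnt pathway, are not in the list and were picked after their values were seen. WLS rose from 116, 91.7 and 86.3 to 483, 447 and 428.5 (log2 change 2.21 ± 0.32, adjusted p = 0.000206). DAAM2 was higher by 2.44 (adjusted p = 0.00076, 0.0135 without DM replicate 1).

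Of 53 genes of the TGF-β superfamily, 3 were higher and none was lower, where 0.32% and 0.179% of all genes were. NOG, the secreted BMP antagonist noggin, stood at 567, 285 and 603.5 in R30E and at 68.7, 51.7 and 93.8 in DM cells (log2 change 2.76 ± 0.41, adjusted p = 0.000246), so that the lowest R30E value was still above the highest DM value. GDF15, a stress-responsive cytokine of the family, was measured at 4116, 3174 and 4398 against 1143, 2234 and 1458 (log2 change 1.27, adjusted p = 0.00278). ENG, the co-receptor endoglin, was higher by 1.39 (adjusted p = 0.00988). GDF15 lost its call without R30E replicates 1 or 3 or DM replicates 1 or 3 (adjusted p up to 0.0391) and ENG without any 1 library (0.013 to 0.0969). Of 22 Notch genes, DLL3, a ligand-like inhibitor of the pathway, was higher at 64.8, 49.2 and 44.4 against 0.996, 2.93 and 3.35. Its adjusted p of 0.00862 went to between 0.0182 and 0.0784 when any 1 library was left out. MFNG, a glycosyltransferase that modifies Notch receptors, fell from 3203, 3469 and 3024 to 1532, 1259 and 1493 (log2 change -1.18 ± 0.19, adjusted p = 0.000722).

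Of 64 guidance receptors and ligands, 2 were called higher and 1 lower, where 0.32% and 0.179% of all genes were. SEMA6B rose from 459, 637 and 671 to 2121, 1663 and 2546 (log2 change 1.84 ± 0.24, adjusted p = 6.93e-05). The related transmembrane semaphorin SEMA6A fell by 1.63 (adjusted p = 0.00167, and 0.02 or less without R30E replicate 1, DM replicate 2 or DM replicate 3, where its call was lost). EPHB1, an ephrin receptor, was higher by 1.82 (adjusted p = 0.00194, up to 0.0222 without R30E replicate 2 or any 1 DM library). PLXNA2, a plexin whose RNA the study discusses, was at 1016, 1139 and 1587 against 553, 498 and 657, a log2 difference of 1.13 that missed the call at an adjusted p of 0.0101 and passed with the replicate block (adjusted p = 0.000228). Without the block, none of the 8 genes discussed in that way was called.

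SARDH, the mitochondrial sarcosine dehydrogenase, stood at 310.5, 310.4 and 397 in R30E and at 41.8, 32.2 and 29.3 in DM cells (log2 change 3.30 ± 0.37, adjusted p = 7.56e-06). WT cells were at 66.4 ± 24.3 and the intact HIF-1α line at 1931 ± 425, both outside the R30E range. TMEM98, a transmembrane protein, was higher by 2.95 (adjusted p = 4.75e-05). KIF26A, an atypical kinesin, was higher by 4.59 (0.000799, 0.0118 without DM replicate 2), and ELFN1, a synaptic leucine-rich repeat protein, by 2.95 (0.0013, up to 0.0169 without R30E replicate 3 or DM replicates 1 or 3). CERS4 (a ceramide synthase), CEMIP (a hyaluronan-binding protein) and PLAC9P1, a pseudogene whose counts are uncertain beside its parent gene, were higher by 3.70, 2.73 and 2.65. Each of these 3 lost its call in 5 of 6 leave-one-out fits (adjusted p up to 0.051, 0.0754 and 0.0493), the exceptions being without R30E replicate 2 for CERS4 and PLAC9P1 and without R30E replicate 1 for CEMIP. KRT81, 1 of 31 keratins and with near-identical paralogs that make its counts uncertain, rose by 2.02 (adjusted p = 0.000661, 0.0106 without DM replicate 2). The receptors IL27RA and IL6R rose by 2.15 and 1.04 (adjusted p = 0.00417 and 0.00797), and HERC5, the only 1 of 44 interferon-stimulated genes called, by 1.29 (adjusted p = 0.0091). IL27RA lost its call without R30E replicates 1 or 3 or DM replicates 1 or 3, IL6R in all fits but that without R30E replicate 1, and HERC5 in all but that without R30E replicate 2 (adjusted p up to 0.0524, 0.0683 and 0.0771).

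**Figure D2:**
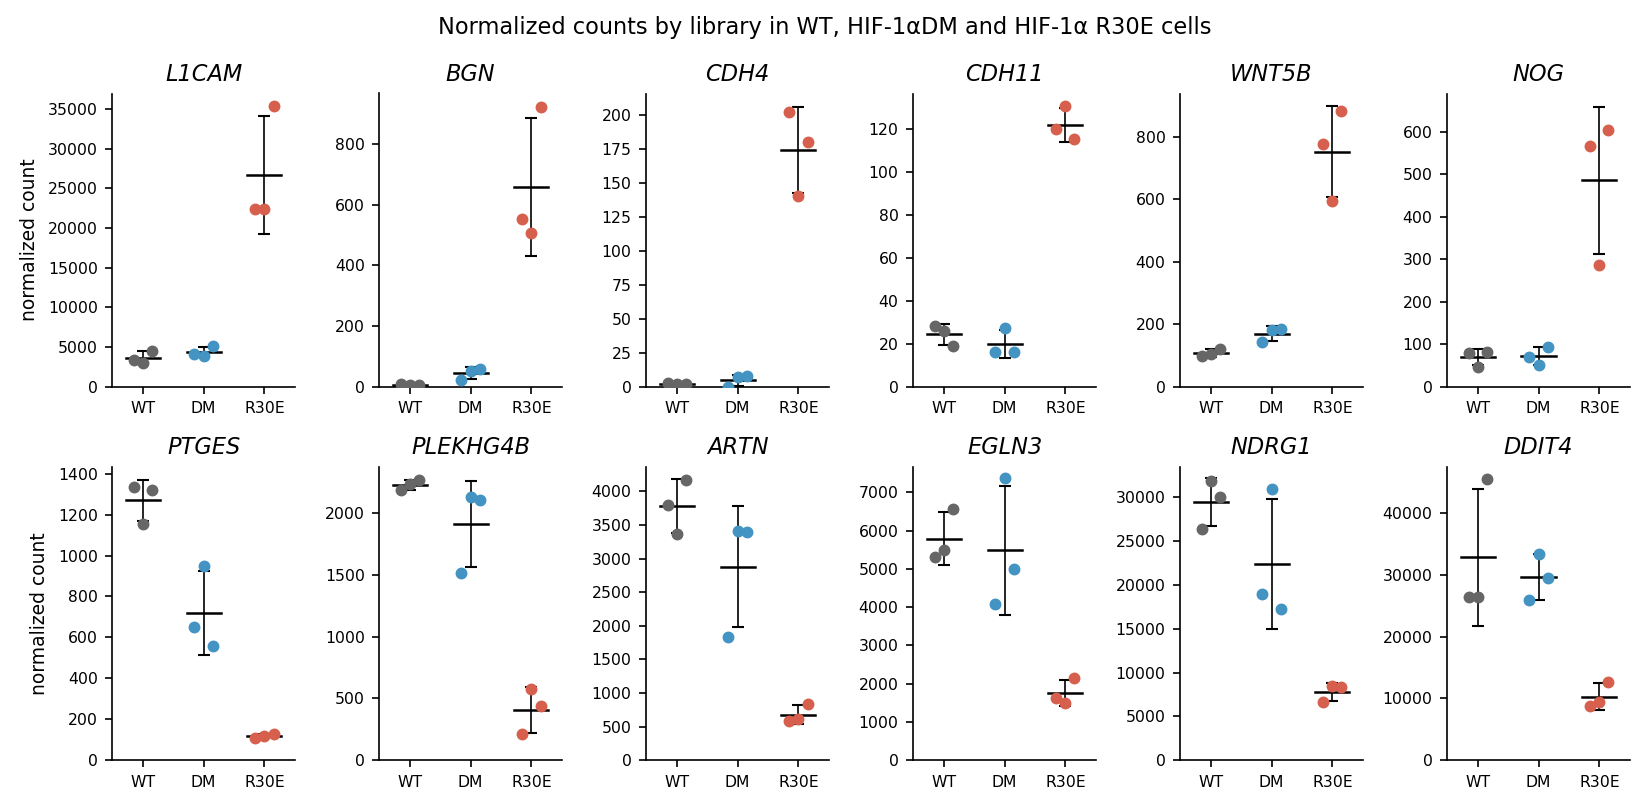
Normalized counts of 12 called genes (y axes, linear from 0, a separate scale for each gene) in the 3 libraries each of WT, HIF-1αDM and HIF-1α R30E cells. Points are libraries, horizontal lines means and bars SDs; in each panel the 3 R30E libraries lie wholly above (upper row) or below (lower row) the 3 DM libraries.

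Among the genes lower with R30E, PTGES had the largest decrease of those with a mean of at least 50 normalized counts. It encodes the microsomal prostaglandin E synthase (ENSG00000148344.11, chr9:129738331-129753042, minus strand) and stood at 108, 118.5 and 127 in R30E and at 652, 950 and 557 in DM cells. The R30E libraries were tightly grouped below all DM libraries (log2 change -2.61 ± 0.31, adjusted p = 1.62e-05), and WT cells, at 1269 ± 99.9, lay above both. ARTN, the GDNF-family ligand artemin, fell from 1834, 3417 and 3391 to 578, 607 and 837 (log2 change -2.09 ± 0.28, adjusted p = 7.12e-05). PLEKHG4B, a guanine nucleotide exchange factor, was at 209, 571.5 and 438 against 1512, 2126 and 2101 (log2 change -2.23 ± 0.23, adjusted p = 3.94e-06). TRIM9, a ubiquitin ligase, KIAA1755, and KRT79, the other keratin called, fell, with log2 changes of -1.88, -1.88 and -1.75 (adjusted p = 7.56e-06, 4.78e-06 and 7.56e-06).

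Other genes with large decreases rested more on single libraries. TNF, the inflammatory cytokine, stood at 104, 56.3 and 64.9 against 461, 195 and 248 (log2 change -2.01 ± 0.35, adjusted p = 0.00159, up to 0.0286 without R30E replicates 2 or 3 or DM replicate 1). The noncoding RNA C22orf34 fell by 2.19 (adjusted p = 0.001, up to 0.0154 without R30E replicate 3 or DM replicate 2). SLC38A5, a glutamine transporter, and SLN, the calcium pump regulator sarcolipin, fell, with log2 changes of -2.05 and -1.98 (adjusted p = 0.00471 and 0.00421). Each lost its call in 4 of 6 leave-one-out fits, SLC38A5 without R30E replicates 1 or 2 or DM replicates 1 or 2 (up to 0.0421) and SLN without R30E replicates 1 or 3 or DM replicates 1 or 2 (up to 0.0561). IL1R2, a decoy receptor for interleukin 1, was at 236, 233 and 160.5 against 471, 627 and 349 (adjusted p = 0.00334, up to 0.0514 without R30E replicates 2 or 3 or DM replicates 1 or 2). EGR2, an immediate early transcription factor, was near the floor in R30E cells at 6.75, 4.02 and 10.2, against 34.9, 64.4 and 40.2 (adjusted p = 0.0004), and was the only 1 of 25 immediate early genes called, a call lost in the fit to only the 2 lines. UNC93A, MYH13 and AC112721.2, picked after their values were seen, were also called lower near the floor, with R30E means of 0, 0.954 and 0.735 against DM means of 8.47, 29.6 and 14.7. UNC93A and MYH13 lost their calls without any 1 library other than DM replicate 3 (adjusted p up to 0.0349 and 0.0732), and AC112721.2 without R30E replicates 2 or 3 or DM replicate 3 (up to 0.0281).

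Matrix genes were also among those that fell. COL6A3, a collagen VI chain, was at 5673, 8440 and 8092 in R30E and at 13290, 19070 and 16840 in DM cells (log2 change -1.15 ± 0.18, adjusted p = 0.000684), the only 1 of 36 collagen genes called. Its change was 0.99 in size without R30E replicate 1, just under 2-fold. MMP2, the gelatinase A that cleaves type IV collagen, fell from 6638, 12260 and 7995 to 2133, 4379 and 3491 (log2 change -1.43 ± 0.24, adjusted p = 0.0013, up to 0.021 without R30E replicate 1 or DM replicate 2), the only 1 of 57 matrix proteases and inhibitors called. LAMB3, a laminin chain, was at 14900, 10910 and 15680 against 32220, 22650 and 33850 (log2 change -1.10, adjusted p = 0.00916, up to 0.0961 without any 1 library other than DM replicate 2), and its call was also lost with RLE scaling. In all, 12 pairs of called genes lay within 1 Mb of each other, 10 of them with the same direction, and they involved 22 of the 117 genes. The same count was not made for genes in general, so these numbers do not show that called genes cluster. Chromosome medians of the log2 difference ran from -0.163 on chromosome 22 to 0.0468 on chromosome 15, beside -0.0225 over all 15355 genes with a mean of at least 10.

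Of 45 classic HIF target genes tested, 3 fell and none rose, where 0.179% and 0.32% of all genes did. Of the 45, 7 had a positive log2 difference, beside 11006 of all 23410 genes, and the list median was -0.45 beside -0.019. EGLN3, the prolyl hydroxylase PHD3 that marks HIF-α for degradation (ENSG00000129521.14, chr14:33924227-34462774, minus strand), stood at 1613, 1501 and 2154 in R30E and at 4095, 7367 and 5008 in DM cells. Even the highest R30E library was below the lowest DM library (log2 change -1.64 ± 0.24, adjusted p = 0.000245), and WT cells, at 5793 ± 686, lay within the DM range. Genes that overlap EGLN3 can take reads from it, since reads were counted without strand. NDRG1, a stress-responsive gene, was at 6626, 8493 and 8340 against 18980, 30900 and 17300 (log2 change -1.52 ± 0.23, adjusted p = 0.00041). DDIT4, which encodes the mTORC1 inhibitor REDD1, was at 8785, 9346 and 12740 against 25930, 33380 and 29570 (log2 change -1.53 ± 0.29, adjusted p = 0.00358). Its call was lost without R30E replicates 1 or 2 or DM replicates 2 or 3 (adjusted p up to 0.037).

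A further pair of HIF targets passed the p threshold at less than a 2-fold change, and like those that follow in the list they were picked after their values were seen. VEGFA, the main angiogenic growth factor, was at 7469, 6414 and 7968 against 12770, 13690 and 13950 (log2 difference -0.89 ± 0.13, adjusted p = 0.000268). ADM, the vasodilator peptide adrenomedullin, was at 3535, 2578 and 3511 against 5516, 6911 and 5888 (log2 difference -0.93 ± 0.17, adjusted p = 0.00322). In both genes the libraries of the lines were well separated. The differences of CA12, NDUFA4L2 and SLC2A1 (log2 -1.03, -1.24 and -0.67) had adjusted p-values of 0.0237, 0.043 and 0.0354 and missed the threshold. With the replicate block CA12 and NDUFA4L2 passed (adjusted p = 2.94e-05 and 0.0066), as did ALDOC, a glycolytic aldolase (log2 change -1.10, adjusted p = 0.00143, 0.0567 without the block). SLC2A1 had an adjusted p of 0.00334 with the block, at less than a 2-fold change. IGFBP3, a secreted binding protein of insulin-like growth factors, had the highest log2 difference of the list, 0.56 (adjusted p = 0.281). CA9, EPO and RORA had means of at most 2.39 normalized counts, and a difference was not detectable at this depth.

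Among 16 hydroxylases, VHL complex members and cofactors, EGLN3 was the only gene called. EGLN1, VHL and HIF1AN, picked outside the naming rule, had log2 differences of 0.34, 0.27 and -0.06. Of 21 glycolysis enzymes none was called without the block in either direction (median log2 difference -0.118), and PKM and ENO1, at means of 405700 and 255400, had log2 differences of -0.11 and 0.01. None of the 20 tested entries for bHLH-PAS factors was called, ARNT2 and AHR, also picked outside it, included (log2 differences -0.14 and 0.27). The AHR also pairs with HIF-1β. None of 9 AHR target genes was called, and CYP1B1 stood at 1243, 2711 and 3387 against 3999, 8737 and 8737 (log2 difference -1.55, adjusted p = 0.0498). With the replicate block CYP1B1 passed (adjusted p = 1.24e-05). None of 24 p53 targets, 46 proliferation genes or 35 HOX genes was called.

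The other groups of the first batch place these levels. On a scale where the DM mean is 0 and the R30E mean is 1 (mean log2 CPM of each gene), WT cells were nearer to DM than to R30E for all 75 higher genes (median -0.519) and for 40 of 42 lower genes (median -0.124). WT cells lay beyond DM, on the side away from R30E, for 72 of the 75 and 29 of the 42. In those 72 genes DM cells were thus above WT cells as well. The line with intact HIF-1α had a median of 0.509 over the higher genes and -0.199 over the lower genes. The line with HIF-2α had medians of 0.329 and -0.967. HIF-2α R27E had medians of 0.194 over the higher and 0.152 over the lower genes, and HIF-2αDM of 0.313 and 0.145. The HIF-2α KIN clone was nearer to R30E for 29 of the 42 lower genes, with a median of 0.75. These placements describe genes chosen for their R30E and DM values, and carry no test.

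**Figure D3:**
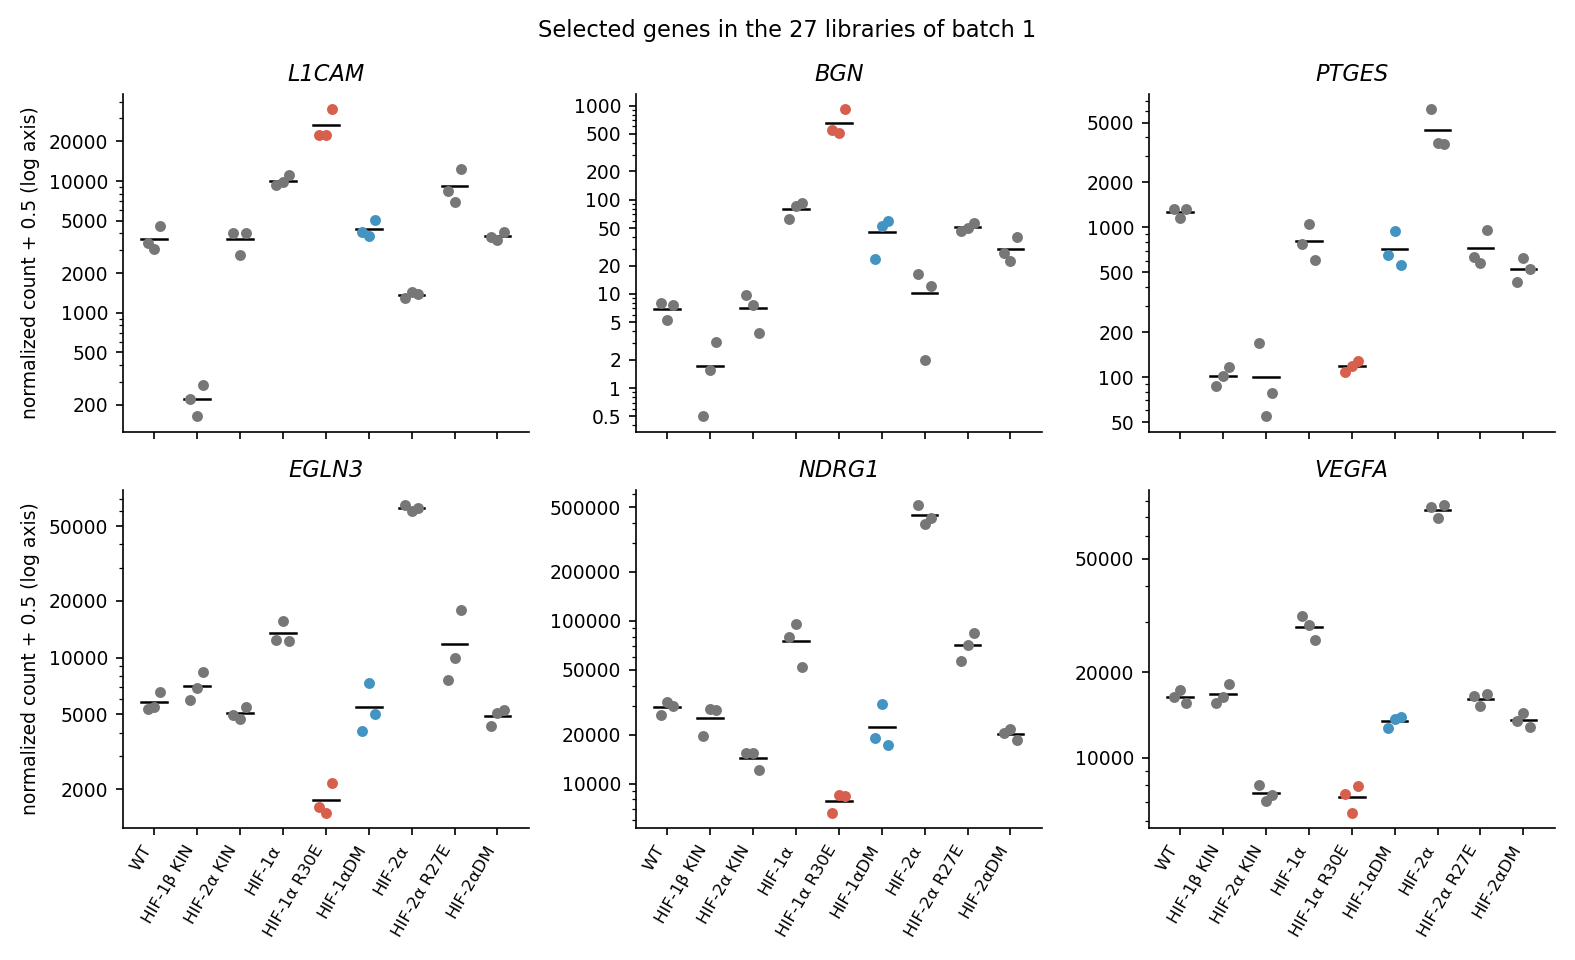
Normalized counts plus 0.5 (log axes) of 6 genes in the 27 libraries of the first batch, 3 points per group with the mean as a line, R30E in red and DM in blue. L1CAM and BGN reach their highest levels in R30E cells, while EGLN3 and NDRG1 are lowest there and highest with HIF-2α.

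Single genes show these patterns. L1CAM was at 10080 ± 1000 with HIF-1α, 9197 ± 2810 with HIF-2α R27E and 1370 ± 75.4 with HIF-2α, all below the R30E mean of 26670 ± 7490. EGLN3 was at 13450 ± 1940 with HIF-1α and 62420 ± 2300 with HIF-2α, against 1756 ± 350 with R30E. NDRG1 ran from 7820 ± 1040 with R30E to 446600 ± 60700 with HIF-2α. PTGES was at 99.8 ± 59.7 in HIF-2α KIN and 4477 ± 1470 in the HIF-2α line, with R30E (118 ± 9.61) close to the former.

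The second batch holds other libraries of WT, HIF-1α and HIF-2α cells, so it gives values for the called genes that the comparison did not use, over 22915 genes tested in both batches. Scaled within that batch, HIF1A was at 13160 ± 494 with HIF-1α and 293 ± 28.1 in WT cells. In the first batch it was at 3038 ± 233 and 242 ± 13.5. RNA extraction and library preparation also differed between the batches. Of the 75 genes higher with R30E, 52 (69.3%) were called higher with HIF-1α than in WT cells, where 4.87% of all genes were, and none was called lower (0.607% of all genes). With HIF-2α, 46 (61.3%) were called higher than in WT cells (6.62% of all genes) and 2 lower (2.65% of all genes). The 42 genes lower with R30E divided differently: with HIF-1α 12 were called higher and 4 lower, and with HIF-2α 22 (52.4%) were called higher and 10 (23.8%) lower. The count of 22 was 36 with the replicate block and 13 without R30E replicate 1, since 84 and 30 genes were then called lower. The HIF-2α comparison was added after the data had been examined.

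**Figure D4:**
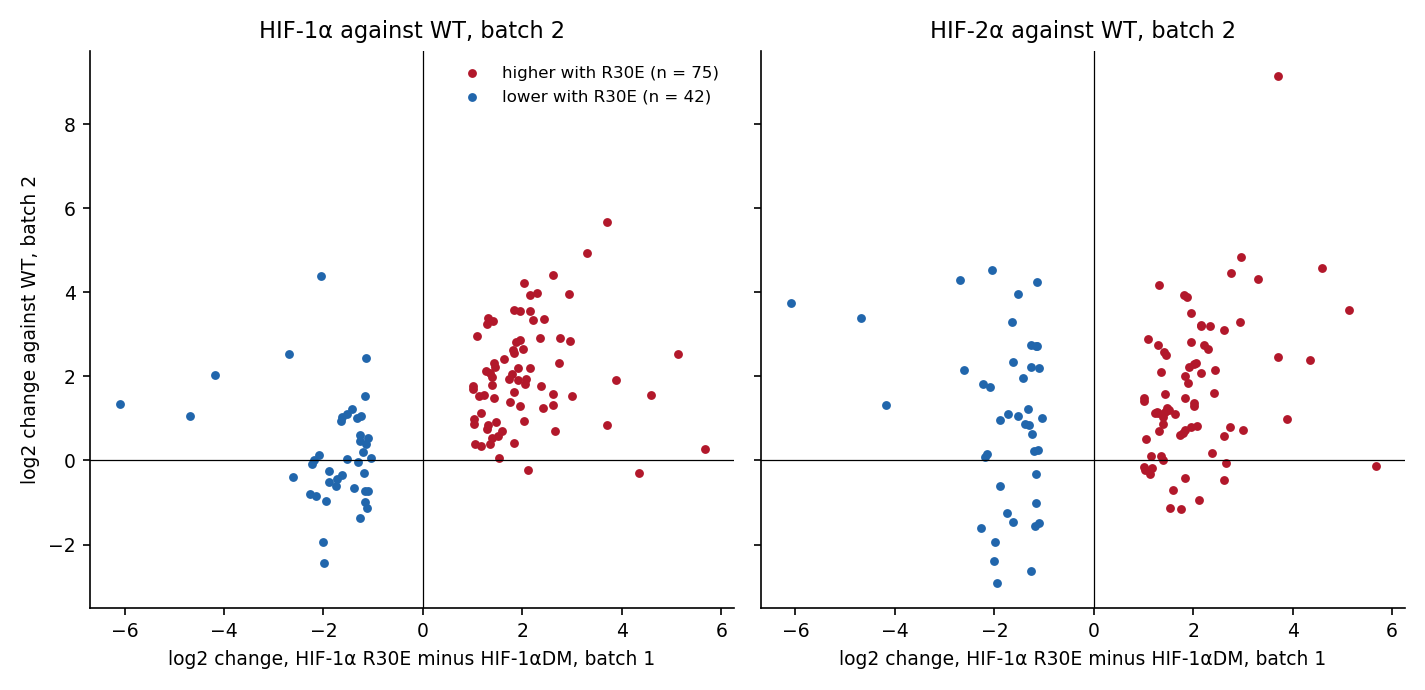
Log2 change of the 117 called genes against WT in the second batch (y axes; left with HIF-1α, right with HIF-2α), plotted against their log2 change between R30E and DM in the first batch (x axes). Of the 75 red genes, higher with R30E, 73 lie above 0 in the left panel and 63 in the right; of the 42 blue genes, lower with R30E, 22 and 30 do.

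In those libraries SARDH, CDH11, TMEM98 and WNT5B rose with HIF-1α by 4.94, 4.41, 3.97 and 3.93 on the log2 scale, and all 4 rose with HIF-2α too (by 4.32, 3.11, 3.28 and 3.21). L1CAM rose by 1.58 with HIF-1α (adjusted p = 9.79e-20), and its log2 change with HIF-2α was -0.46. BGN rose by 1.93 with HIF-1α (adjusted p = 0.00239), and its difference of 0.99 with HIF-2α did not pass (adjusted p = 0.141). SEMA6B and WNT2B, higher with R30E, were not called with either protein. Among genes lower with R30E, HIF-2α raised SLC38A5 by 4.54, EGR2 by 4.28, PTHLH by 4.26 and NDRG1 by 3.96, as well as EGLN3 by 3.30, FZD8 by 2.75, COL6A3 by 2.72 and PTGES by 2.15. With HIF-1α their log2 changes, in the same order, were 4.38, 2.53, 0.39, 1.11, 0.94, 0.59, 2.44 and -0.40. TNF and SLN were lowered by both proteins, with log2 changes of -2.39 and -1.93 with HIF-2α and -1.95 and -2.44 with HIF-1α. PTHLH, the parathyroid hormone-related peptide, was picked after its values were seen, and its own log2 change between R30E and DM was -1.14 (adjusted p = 0.000886, 0.0115 without R30E replicate 1).

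Seen from the second batch, the 1115 genes that HIF-1α raised had a median log2 difference of 0.321 between R30E and DM. Of them 32.2% were negative, beside 52.2% of all 23410 genes tested in the first batch. Of the 1115, 52 (4.66%) were called higher and 12 (1.08%) lower, where 0.32% and 0.179% of all genes were. The 139 genes that HIF-1α lowered had a median of -0.577, with 85.6% negative and 4 (2.88%) called lower. The 1517 genes that HIF-2α raised had a median of 0.0483, with 46 (3.03%) called higher and 22 (1.45%) lower. The 608 genes that HIF-2α lowered had a median of -0.197. Of them 2 (0.329%, near the share of all genes) were called higher and 10 (1.64%) lower.

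The pair of HIF-2α mutants asks the same question of HIF-2α and shares no library with the pair of HIF-1α mutants. HIF-2α R27E and HIF-2αDM differed in 6 genes (0.0256%), of which NDRG1, F3, KCNMB4, TRABD2A and COL5A2 were higher with R27E and CHST1 was lower, all named after their values were seen. An unadjusted p under 0.05 was reached by 1017 of 23410 genes, beside 1828 in the pair of HIF-1α mutants. The count of 1017 is below what that threshold would give with no difference at all. Over the 75 genes higher with R30E, the median log2 difference between R27E and HIF-2αDM was -0.104, and 30 had a positive one. Over the 42 lower genes the median was 0.122, and 17 were negative. The difference between the 2 effects passed the same thresholds for 62 genes (0.265%), among them 28 of the 75 and 19 of the 42. The 117 genes were chosen for the R30E effect, which is a term of this difference, so their share among the 62 is in part fixed by that choice. This count was 41 without R30E replicate 1, 37 and 40 without DM replicates 2 and 3, 36 without R27E replicate 2, and 38, 38 and 39 without HIF-2αDM replicates 1, 2 and 3. With the replicate block it was 178.

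**Figure D5:**
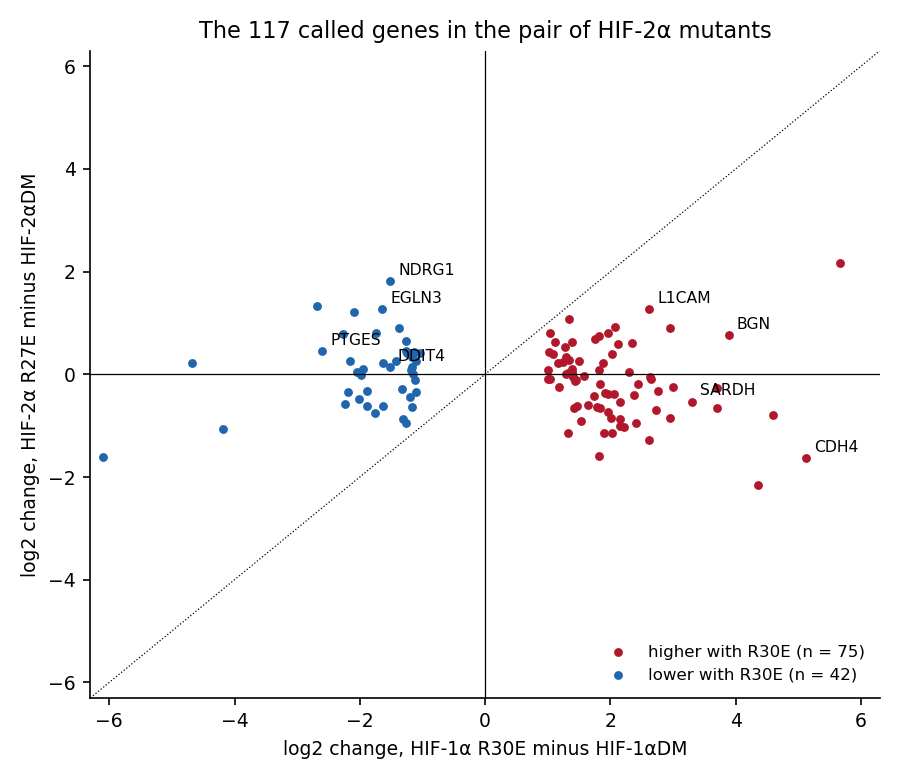
The 117 called genes by their log2 change between HIF-1α R30E and HIF-1αDM (x axis) and between HIF-2α R27E and HIF-2αDM (y axis), with a dotted line where both are equal. The y values run from -2.15 to 2.17, and NDRG1, lower with R30E, is the gene of the 117 that was called in the HIF-2α pair (higher with R27E).

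NDRG1 is called in both pairs, in opposite directions. It stood at 70800 ± 14200 with R27E and at 20190 ± 1570 with HIF-2αDM (log2 change 1.81 ± 0.24, adjusted p = 0.000889), and the difference between its 2 effects was -3.33 (adjusted p = 4.8e-06). EGLN3, at 11800 ± 5340 against 4892 ± 511, had a log2 difference of 1.27 that missed the threshold in the HIF-2α pair (adjusted p = 0.0318), and its effects differed by -2.91 (adjusted p = 3.39e-05). L1CAM was higher with R27E by a log2 difference of 1.27 that missed the threshold (adjusted p = 0.0192), and the difference between its effects, 1.36, did not pass either (adjusted p = 0.0416).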

How the data were processed

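PolyA RNA was sequenced (TruSeq and NEBNext Ultra II libraries, NovaSeq), and the authors aligned the reads to hg38 with STAR and counted unique alignments per gene with HTSeq without regard to strand, so overlapping and antisense genes can lose or share reads. The deposited values are raw counts of reads per gene, used as deposited. Levels were normalized with TMM. Genes with a mean of at least 0.5 normalized counts in the 27 libraries of the first batch were tested with edgeR 4.0.16 (quasi-likelihood test, limma 3.58.1, R 4.3.3), fitted to all 9 groups so that they share the spread, with Benjamini-Hochberg adjustment over all genes. A call needed an adjusted p of at most 0.01 and at least a 2-fold change. The second batch (15 libraries) was fitted alone. DESeq2 1.42.0, other filters and scalings, a replicate block and fits without 1 library were alternatives.

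The members, gene lists and tests were chosen with earlier results of these data known. Genes were named by a rule: HIF1A, EPAS1 and ARNT; the 12 called genes with the largest change in each direction at a mean of at least 50 normalized counts and no overlap between the lines; and of each of 39 lists the called members and the 2 with the highest mean. Some genes that the rule names are not reported here. Genes outside it are said to be picked after their values were seen. Same-numbered libraries correlated in their deviations from the group means at 0.297, 0.176 and 0.424, and differently numbered ones at -0.293 to -0.0152. Deviations from a group mean cancel out within the group, so the negative values follow from the positive ones and add no support. A pairing by number therefore rests on the same-numbered correlations alone, the weakest of them 0.176. Coordinates are from GENCODE v44 (hg38). The fits were tested on simulated independent libraries, with changes only in genes at a mean of at least 50 normalized counts. That simulation held no effect of the replicate number and does not bear on calls near the floor. Depth gives intervals for counting error only.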

Additional observations from a re-analysis of the deposited data

Results flagged for a closer look

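The effect of R30E against HIF-1αDM differed from that of R27E against HIF-2αDM, by a test of the difference itself (edgeR's quasi-likelihood test, adjusted p of at most 0.01 and at least a 2-fold difference), for 27 of the 86 genes described that were followed through the alternatives. Many of them were chosen for their R30E effect, a term of the difference. The difference of the log2 effects was positive for 13 genes. It was 6.76 for CDH4, 6.5 for DLL3 and 5.39 for KIF26A, which were all near the floor in HIF-1αDM cells. It was 3.83 for SARDH, 3.8 for TMEM98, 3.41 for EPHB1, 3.24 for WLS and 3.15 for WNT5B. It was 3.12 for BGN, 3.08 for NOG, 3.01 for IL27RA, 2.42 for ESAM and 2.03 for SEMA6B.

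The difference was negative for the other 14 genes. It was -1.13 for VEGFA, -1.3 for SYT13, -1.55 for KIAA1755, -1.57 for PTHLH and -1.65 for PLEKHG4B. It was -1.71 for FZD8, -1.78 for F3, -1.88 for COL5A2, -1.91 for ENPEP, -2.91 for EGLN3 and -3.06 for PTGES. It was -3.3 for ARTN, -3.33 for NDRG1 and -4.01 for EGR2, which was near the floor in R30E cells. SYT13 and ENPEP, whose log2 changes between R30E and DM were -1.17 and -1.26, were picked after their values were seen.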

How the results depend on the processing

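Beside 75 genes higher, 42 lower and 62 whose effect differed from that in the HIF-2α pair, an adjusted p of at most 0.05 with no minimum fold gave 152, 97 and 129, no filter on low counts gave 133, 85 and 164, and DESeq2 gave 140, 69 and 157, with all 75 and 42 among its calls. A fit to only the groups compared gave 71 higher, 27 lower and 31 that differed, and shared 59 and 26 of the calls. With the replicate block, which assumes that same-numbered libraries are paired, the counts were 143, 84 and 178. The block also brought CA12, NDUFA4L2, CYP1B1, PLXNA2, ALDOC and CHST1 past the threshold, and it changed no other call among the 86 genes refitted. A filter at 10 counts and RLE scaling stayed within 1.5 times of all 3 counts. Leaving out 1 library gave 29 to 58 higher, 29 to 33 lower and 36 to 70 that differed. Without the libraries numbered 3, an alternative chosen after seeing the data, 56, 48 and 68 were called.

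HIF1A was called in none of these fits. EPAS1, not called in any, had log2 differences of -0.314 to 0.000432 without 1 library, the latter without R30E replicate 1. Small differences of uncalled genes also changed sign: HIF1AN (0.0176 without R30E replicate 1, 0.0222 without DM replicate 1, range -0.192 to 0.0222), PKM (0.0386 without DM replicate 1, from -0.209), VHL (-0.0376 without DM replicate 1, up to 0.592) and ENO1 (-0.0445 and -0.117 without DM replicates 2 and 3, up to 0.268, and -0.0944 without the libraries numbered 3). Of 55 called genes refitted, 22 kept their call in 13 alternatives (6 of them without 1 library each) and 32 lost it without at least 1 library. COL6A3, MMP2, FZD8, SLC38A5, IL1R2, PTHLH, HERC5, IL6R, LAMB3, UNC93A, MYH13, AC112721.2 and EGR2 lost it in the fit to only the groups compared, LAMB3 also with RLE scaling and IL6R with no filter. GDF15, IL27RA, CEMIP, HERC5, IL6R, PLAC9P1, AC112721.2, UNC93A, ENG and WNT2B lost it without the libraries numbered 3. The cause was not tested. Depth limits statements on genes near the floor, such as CA9, EPO and DLL3.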

Other observations

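The 13 mitochondrially encoded genes had log2 differences of -0.723 to -0.309 between R30E and DM cells, with a median of -0.518, and none was called. All 9 metallothioneins were negative as well (median -0.518), again with no call. Of 32 sterol and fatty acid synthesis genes 5 were positive, with a median of -0.294, and of 35 HOX genes 27 were, with a median of 0.155. Over all 23410 genes tested, 11006 were positive. The summed counts of each of these lists overlapped between the lines. For the mitochondrially encoded genes they were 62320 to 179000 in R30E and 118800 to 209300 in DM libraries. For the metallothioneins they were 77650 to 148300 and 104000 to 148600. Genes of a list can move together within a library, and the shared signs were not tested.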
